A study of Mus musculus with 4 samples.

Results

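Cells that carried the platelet chemokine transcripts Pf4 and Ppbp were examined in single-cell RNA sequencing (scRNA-seq) of bone marrow from 4 mice with transplanted myeloma. A cell was a member when its barcode held at least 300 genes, at most 20% of its unique molecular identifiers (UMIs, each 1 counted transcript molecule) from mitochondrial genes, at least 3 Pf4 UMIs and at least 2 Ppbp UMIs. Of 39743 cells that passed the gene and mitochondrial limits, 61 were members, or 0.153%. The gate uses measured counts, so the level of Pf4 and Ppbp in these cells, and every difference between gated and other cells, is a description and was not tested.

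All mice were of the 5TMM model, in which C57BL/KawRij mice were injected intravenously at 6 weeks of age with 5TGM1 mouse myeloma cells carrying a luciferase reporter, and all bore tumours for 3 weeks before treatment. The vehicle group (n = 2 mice) received vehicle and the PM group (n = 2 mice) received 10 mg/kg Purinostat Mesylate, a small-molecule inhibitor of class I and IIb histone deacetylases (HDACs), both for 24 h before the marrow was collected. Red cells were lysed, 3' libraries were made with droplet chemistry, and each library held the marrow of 1 mouse, so the mouse is the replicate and no group without tumour enters the comparison. The libraries of vehicle replicates 1 and 2 and PM replicates 1 and 2 held 86052982, 69828595, 109447030 and 74388936 UMIs in called barcodes, and 9261, 7826, 13387 and 9269 cells were kept.

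Megakaryocytes are large polyploid marrow cells that fill their cytoplasm with granules and shed platelets, which have no nucleus and carry a stock of megakaryocyte mRNA into the blood. PF4 and PPBP are chemokines stored in the alpha granules of platelets, and the glycoprotein Ib-IX-V complex and integrin alphaIIb-beta3 are the receptors by which platelets bind von Willebrand factor and fibrinogen. Activated platelets bind leukocytes through P-selectin, and neutrophils and monocytes with bound platelets are a known form of this contact.

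Pf4, Ppbp and the related chemokine gene Cxcl5 lie next to each other. In GRCm38 with GENCODE M21 annotation, Cxcl5 is on chromosome 5 from 90759360 to 90761624, Ppbp from 90768518 to 90770063 and Pf4 from 90772435 to 90773383, all on the plus strand. The gaps between the genes are 6893 and 2371 bases, with 0 other protein-coding genes in them. The 150 bases before the RefSeq start are shown for the 2 genes of the gate and for Itga2b and Gp9, the other 2 markers given for these cells, because GATA and ETS family factors are known to act at megakaryocyte promoters. Capitals mark GATAA or its reverse complement TTATC, and GGAAG or its reverse complement CTTCC, on the gene's strand from RefSeq on GRCm38.p6, at chr5:90772285-90772434 (plus) for Pf4, chr5:90768368-90768517 (plus) for Ppbp, chr11:102469884-102470033 (minus) for Itga2b and chr6:87777920-87778069 (plus) for Gp9. The stretch of Itga2b lies before its RefSeq start but inside the GENCODE gene, which ends at 102470122, so the 2 annotations start this gene at different bases.
Pf4: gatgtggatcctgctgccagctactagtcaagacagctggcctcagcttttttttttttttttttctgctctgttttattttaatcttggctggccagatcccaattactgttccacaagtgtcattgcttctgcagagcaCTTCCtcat
Ppbp: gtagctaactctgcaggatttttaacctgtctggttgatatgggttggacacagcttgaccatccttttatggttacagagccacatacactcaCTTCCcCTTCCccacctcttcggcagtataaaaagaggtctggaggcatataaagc
Itga2b: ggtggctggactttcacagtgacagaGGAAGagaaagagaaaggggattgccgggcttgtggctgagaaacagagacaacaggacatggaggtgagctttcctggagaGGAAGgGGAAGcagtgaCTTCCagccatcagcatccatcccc
Gp9: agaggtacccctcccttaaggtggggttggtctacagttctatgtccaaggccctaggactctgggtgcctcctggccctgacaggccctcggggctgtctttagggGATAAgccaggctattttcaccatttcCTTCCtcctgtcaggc
All 4 stretches held GGAAG or CTTCC, from 1 match in Pf4 and in Gp9 to 2 in Ppbp and 4 in Itga2b, and Gp9 alone of the 4 held GATAA or TTATC. Such short motifs are frequent. Over the 250 bases before the start, GATAA or TTATC was found in 25.0% of the 108 platelet-list genes with a RefSeq promoter (of 137 on the lists) and in 23.0% of 27025 promoters, and GGAAG or CTTCC in 70.4% and 63.6%. A match is a description of letters and not a binding site.

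The gated cells were spread unevenly over the mice. Vehicle replicate 1 gave 3 cells, vehicle replicate 2 gave 14, PM replicate 1 gave 16 and PM replicate 2 gave 28. The 3 cells of vehicle replicate 1 were all shallow, with 599, 1123 and 1730 UMIs, and together held 3452 UMIs. Summed over its gated cells, vehicle replicate 2 held 444533 UMIs, PM replicate 1 held 191357 and PM replicate 2 held 349087. A single cell of vehicle replicate 2 held 277644 UMIs, which was 28.1% of all UMIs in gated cells and 62.5% of those of its mouse. No gated barcode sequence was found among the kept barcodes of another library, and 160 pairs of other kept barcodes were shared between libraries. A further 2 barcodes, 1 in each PM library, passed the Pf4 and Ppbp limits and failed the gene or mitochondrial limit.

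Cells at the edge of the gate differed from its core. The 5 gated cells at the lowest allowed count of either gene had a median of 4120 UMIs, 2 of the 5 held Itga2b and none held Gp9, and 3 of them carried monocyte transcripts. Just outside, 100 cells had at least 3 Pf4 UMIs and fewer than 2 Ppbp UMIs, with a median of 7 Pf4 UMIs against 33 in the gated cells. Among these 100 cells, 55.0% held Itga2b, 45.0% held the progenitor receptor Kit and 26.0% held the macrophage complement gene C1qa, while Kit was found in 11 and C1qa in 0 of the 61 gated cells. Only 9 cells had at least 2 Ppbp UMIs and fewer than 3 Pf4 UMIs.

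The given markers were present in the gated cells and scarce elsewhere. Itga2b, the alphaIIb chain of the fibrinogen receptor, had a UMI in 75.4% of gated cells and 2.80% of other cells, and Gp9, a subunit of the von Willebrand factor receptor, in 47.5% and 1.21%. B cells (at least 2 UMIs each of Cd79a and Cd79b, 3322 cells), which should lack these genes, held Pf4 in 1.08%, Ppbp in 0.181%, Itga2b in 0.873% and Gp9 in 0.120% of cells, at a median of 2632.5 UMIs per cell against 5586 in gated cells. After each cell was thinned to 500 UMIs, Itga2b was still seen in 29.5% of gated cells and 0.438% of other cells, and Gp9 in 11.5% and 0.0680%. In vehicle replicate 1, 2 of the 3 cells held Itga2b and 0 of 3 held Gp9. Tubb1, the platelet beta-tubulin, stood apart from the other defining markers, with 7 UMIs in 2 of the 61 gated cells and 0 UMIs in all other cells.

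Granule cargo genes include both genes of the gate. Pf4 made up 16802, 33152, 15238.5 and 7734 CPM (UMI counts per 1e+06 UMIs) in the summed gated cells of vehicle replicates 1 and 2 and PM replicates 1 and 2, and Ppbp 5504, 6719, 2697 and 1510 CPM. In all other cells of the same mice Pf4 lay between 6.20 and 23.8 CPM and Ppbp between 0.222 and 0.451 CPM. Of the 36 granule and secretion genes listed, Pf4 and Ppbp included, 33 had a UMI in the gated cells, 27 were at a higher CPM than in other cells, and 3, Fgg and Mmrn2 among them, were at 0. Rab27b, a GTPase of dense granule transport, had a UMI in 77.0% of gated cells and 0.622% of others. The metalloproteinase inhibitor Timp3 was found in 70.5% against 0.237%, and Vwf, which encodes von Willebrand factor, in 57.4% against 0.874%. Cxcl5, the chemokine gene beside Ppbp, was the rarest of these, with 97 UMIs in 16 gated cells and a UMI in 0.0176% of other cells. Srgn, the granule proteoglycan serglycin, and the factor XIII gene F13a1 were exceptions with lower CPM in gated than other cells (504 against 719 and 124 against 317).

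Surface receptors formed the second group. All 26 listed genes had a UMI and 22 were higher in CPM than in other cells. Clec1b, the receptor CLEC-2, was found in 65.6% of gated and 1.83% of other cells, and Itgb3, the beta3 integrin chain, at 864 and 16.2 CPM. The glycoprotein genes Gp1ba, Gp1bb and Gp5 had a UMI in 49.2%, 49.2% and 52.5% of gated cells and in at most 1.39% of others. Gp6, the collagen receptor, was found in 39.3% and 0.0454%, and Mpig6b, an inhibitory receptor of the lineage, in 37.7% and 0.0403%. Fcer1g, the signalling partner of glycoprotein VI and also an Fc receptor chain of myeloid cells, went the other way and was found in 59.0% of gated and 79.2% of other cells.

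Signalling and cytoskeletal genes were the most widely detected. Plek, encoding the platelet kinase substrate pleckstrin, was present in all 61 gated cells and 52.8% of others, and Rap1b, the GTPase that acts in integrin activation, in 96.7% and 82.5%, at 3043 against 385 CPM. Of 42 signalling genes, 37 were higher in CPM in the gated cells. Alox12, the 12-lipoxygenase of platelets, reached 469 CPM against 0.146 CPM elsewhere. The tropomyosin gene Tpm4 had a UMI in 98.4% of gated and 48.6% of other cells, and the myosin light-chain kinase gene Mylk in 57.4% and 0.759%. The transcription factor genes Gata1 and Gfi1b were found in 50.8% and 45.9% of gated cells and 2.65% and 2.61% of others, whereas Nfe2, which neutrophils also express, was found in 72.1% and 61.2%.

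**Figure D1:**
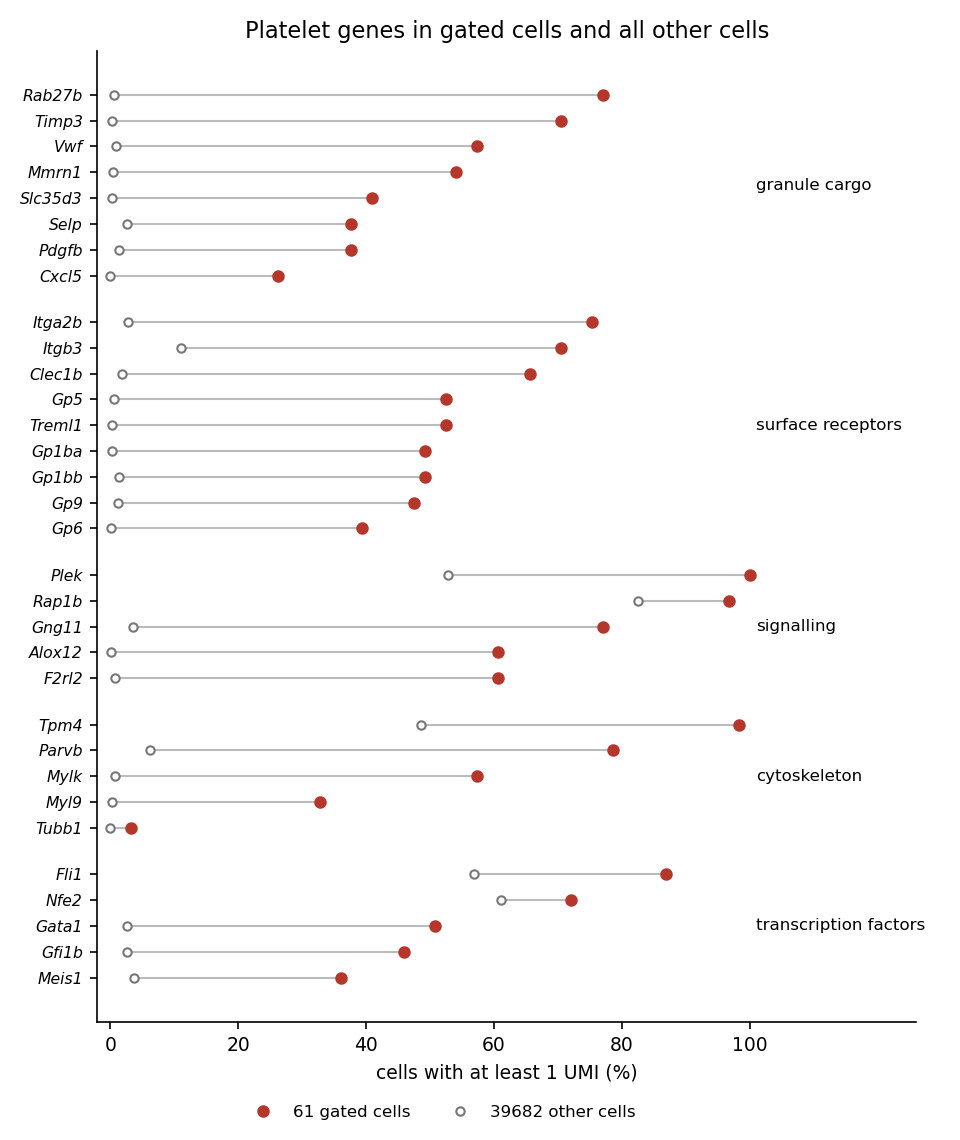
Each row is a gene; the horizontal axis is the percentage of cells with at least 1 UMI, with filled points for the 61 gated cells and open points for the 39682 other cells, grouped by role. Plek is at 100% of gated cells and Tubb1 at 3.28%, the ends of the range.

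By ratio of CPM to other cells, the leading genes with a UMI in at least 20% of gated cells and a higher value in all 4 mice were, in order, Ppbp, Alox12, Mpig6b, Gp6, Pf4, Serpina3b, Timp3, Fhl1, Gnaz, Proser2, Rbpms2, Mrvi1, Rab27b, Cavin2, Cald1, Mmrn1, Gcsam, Tgfb1i1, Myom1 and Clec1b. Ratios ran from 11482 for Ppbp to 194 for Clec1b. Cavin2, a coat protein of caveolae, was detected in 86.9% of gated cells, the widest of the 18 genes that were not in the gate. The caldesmon gene Cald1 was at 247 CPM against 0.514 and Mrvi1, a substrate of cGMP-dependent kinase, at 361 against 0.648. These values pool the UMIs of all 4 mice, and vehicle replicate 2 held 444533 of the 988429 UMIs in gated cells. It held 206 of the 244 Cald1 UMIs, and Cald1 was at 869, 463, 57.5 and 68.8 CPM by mouse.

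Depth varied widely among members. The gated cells held 504 to 277644 UMIs, and 15 had fewer than 2000, 26 had from 2000 to under 10000 and 20 had 10000 or more. The median was 5586 UMIs and 1913 genes, against 5136 UMIs and 1618 genes in other cells. Thinned to 500 UMIs, the gated cells showed a median of 372 genes and the other cells 290. The deepest cell held 12100 Pf4, 2006 Ppbp, 265 Itga2b, 140 Gp9 and 276 Mki67 UMIs, where Mki67 encodes the proliferation antigen Ki-67. It was called a doublet, a droplet with 2 cells, as was the cell of vehicle replicate 2 with 74600 UMIs.

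Transcripts of other cell types were found in 17 of the 61 gated cells, by thresholds set after the values were seen. In 11 cells the 21-gene neutrophil list took over 100 of every 1000 UMIs, in 5 further cells the monocyte list took over 4, and in 1 cell of vehicle replicate 2 the erythroid list took 434. The classes were made exclusive, and 2 of the 11 neutrophil-carrying cells, both of PM replicate 1, were over the monocyte limit too. The remaining 44 cells (3, 10, 12 and 19 in vehicle replicates 1 and 2 and PM replicates 1 and 2) passed none of these limits and are called unmixed. No limit was set for basophil transcripts, so the name does not cover them. B cell genes were near 0, with 20 UMIs in all 61 cells and Pax5, Ebf1 and Ms4a1 at 0. The macrophage genes C1qa, C1qb, C1qc, Cd163 and Mertk were also at 0, as were Cd3e, Cd3g, Trac, Cd4 and Cd8a of T cells and Cdh5, Emcn, Lepr and Col1a1 of endothelium and stroma. The T and NK cell list as a whole held 121 UMIs, 116 of them from the granule gene Nkg7, and took 0.122 per 1000 UMIs against 0.240 in other cells. The endothelial and stromal list held 36 UMIs, 29 of them from the VEGF receptor gene Kdr, and took 0.0364 against 0.0329.

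Most unmixed cells lacked Malat1, a long noncoding RNA held in the nucleus (the gene was chosen after its values were seen). Malat1 was at 0 in 27 of the 44, at 1 to 3 UMIs in 7 and at 28 to 728 UMIs in 10. By mouse it was at 0 in 3 of 3, 7 of 10, 9 of 12 and 8 of 19 cells, against 1.45%, 3.30%, 1.16% and 2.82% of the other cells of the same libraries. Thinned to 500 UMIs, the shares at 0 were 100%, 100%, 91.7% and 68.4% in unmixed gated cells and 13.7%, 14.3%, 10.7% and 11.1% in other cells. Actb, the cytoskeletal actin gene that nearly all cells express, was seen in 97.7% of unmixed gated cells and 96.2% of other cells at that depth. The nuclear RNA Neat1 was found in 0% and 29.8% at the same depth.

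Malat1 and depth moved together. It was at 0 in 12 of 14 unmixed cells with fewer than 2000 UMIs, in 12 of 17 with 2000 to under 10000 and in 3 of 13 with 10000 or more. Cells with Malat1 at 0 had a median of 2879 UMIs (504 to 17061) and 0.613% mitochondrial UMIs, and those with Malat1 had 15645 UMIs (639 to 277644) and 2.67%. The platelet lists without Pf4 and Ppbp, 135 genes, took 102 per 1000 UMIs in the first and 73.1 in the second. Ki-67 was found in 7 of 27 and 12 of 17. Of the 81267 UMIs of the 135 genes in gated cells, 50181 were of cytoskeletal genes, 20557 of them from Tmsb4x alone. These lists took a median of 41.7 per 1000 UMIs in all other cells, so their share does not measure platelet content alone. The ratio of Ppbp to Pf4 UMIs is bounded by the gate itself, more so in shallow cells, and is given as a description. Its median was 0.450 in the shallowest range of depth and 0.0933 in the deepest, and it ran from 0.00330 to 3.08 among single cells.

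**Figure D2:**
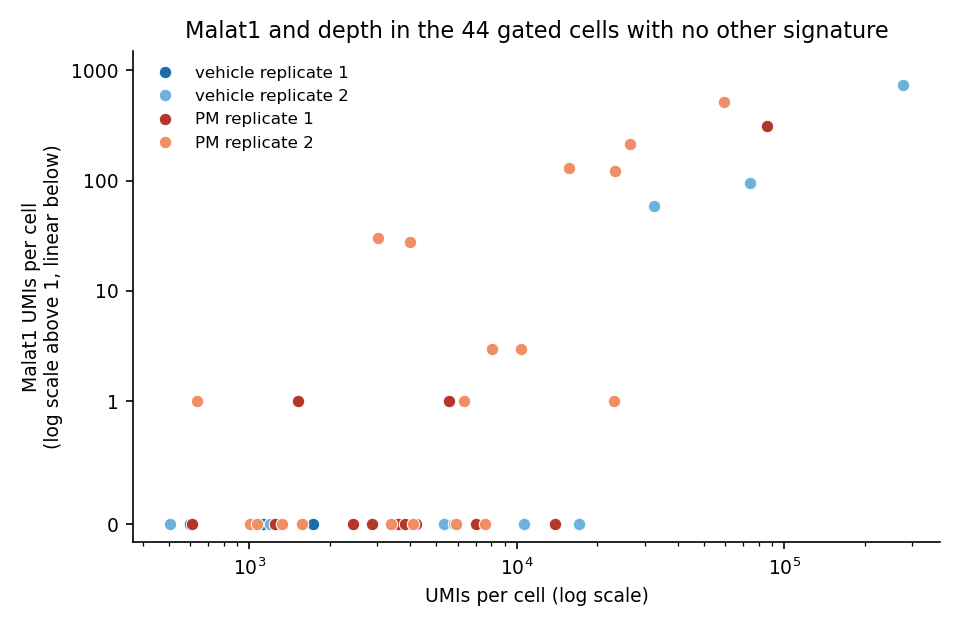
Each point is 1 of the 44 unmixed gated cells, with its UMIs on a logarithmic horizontal axis, its Malat1 UMIs on a vertical axis that is linear below 1 and logarithmic above, and a colour for each mouse. The 27 points on the zero line lie at 504 to 17061 UMIs, and the 10 cells with 28 or more Malat1 UMIs come from vehicle replicate 2 and both PM mice.

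Clustering of the 61 cells gave 4 clusters. Cluster 0 (21 cells, median 3022 UMIs) was led by Rap1b, Ptma, Rpl35a, Rps26 and Pcbp1, and Malat1 was at 0 in 17 of its cells. Cluster 1 (12 cells, 4748 UMIs) was led by Alox12, Gng11, Lgalsl, Myl9 and Ppbp, and the platelet lists took 181 per 1000 UMIs. Cluster 2 (16 cells, 9131 UMIs), led by S100a8, S100a9, S100a6, Malat1 and Lyz2, held the 11 neutrophil-carrying and 5 monocyte-carrying cells and no others. Cluster 3 (12 cells, 23167.5 UMIs), led by Npm1, Calr, Hspd1, Canx and Ncl, genes of the nucleolus and of protein folding, had the highest median of the G2/M list, 3.16 per 1000 UMIs. The erythroid-carrying cell was in cluster 0. At a resolution of 0.5 there were 3 clusters, where 1 of 28 cells held the 16 neutrophil- and monocyte-carrying cells with 12 unmixed cells, and at 1.5 there were 5. All 3 cells of vehicle replicate 1 were in cluster 0.

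The neutrophil-carrying cells were chosen by the neutrophil list, so its members in them are a description. The list took 137 to 311 per 1000 UMIs (median 259), against a median of 378 in the 24932 other cells over the same limit, 3.55 in B cells and 1.99 (0.293 to 19.6) in unmixed gated cells. S100a8, a subunit of calprotectin, had 174 to 4215 UMIs per cell, against 0 to 45 in unmixed cells. All 11 held Cxcr2 and Csf3r, the receptors for CXC chemokines and granulocyte colony-stimulating factor, with Retnlg and the granule peptide gene Camp. The primary granule genes Elane and Mpo were found in 18.2% and 45.5% of them and in 16.2% and 23.8% of the other cells over the limit. On the platelet side they held 3 to 154 Pf4 and 2 to 60 Ppbp UMIs, and the platelet lists took a median of 72.7 per 1000 UMIs, between the 99.7 of unmixed gated cells and the 45.6 of other cells over the neutrophil limit. Their median depth was 9775 UMIs, against 4129 in unmixed gated cells and 5156.5 in those other cells, and 4 of the 11 were called doublets (droplets with 2 cells), against 2 of the 44 unmixed cells. The part of doublets in this result was not tested.

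**Figure D3:**
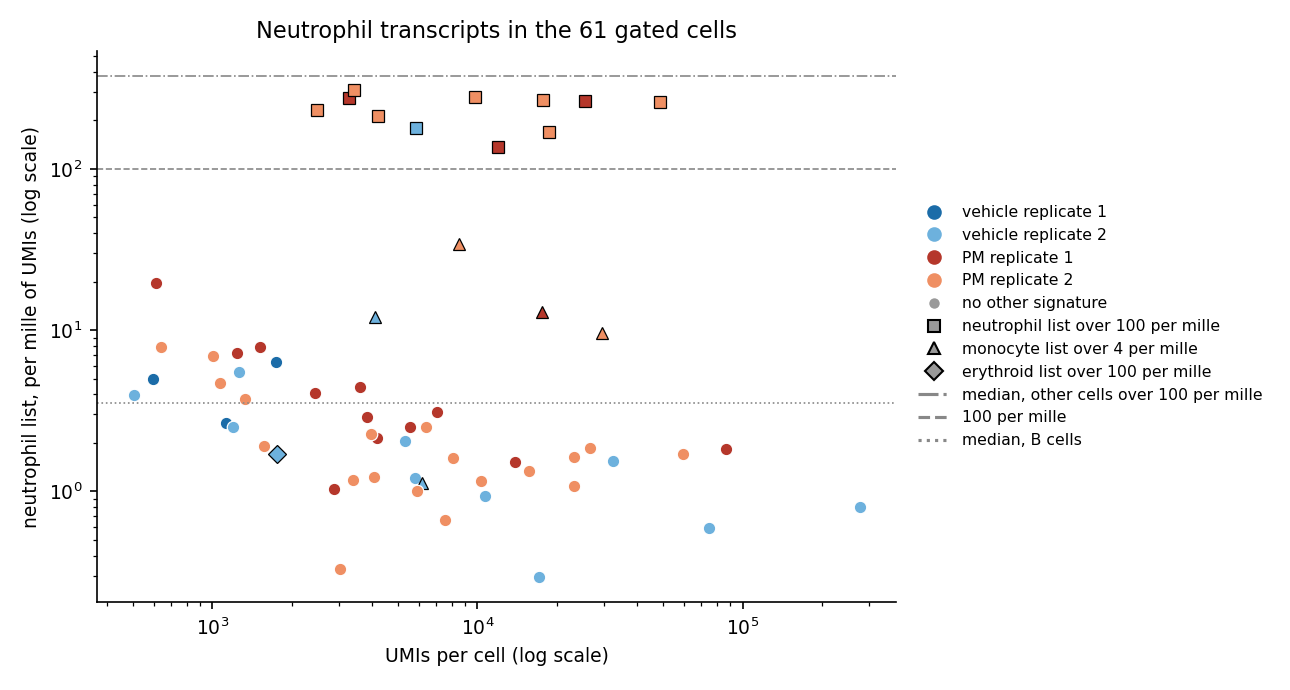
Each point is 1 of the 61 gated cells, with its UMIs and the neutrophil list's share of them (per 1000) on logarithmic axes, coloured by mouse and shaped by the other signature it carried. The 11 squares lie at 137 to 311 per 1000, below the line at 378 for other cells over the limit, and the unmixed cells lie at or below 19.6.

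Counted by mouse, the neutrophil-carrying cells were 0 of 3, 1 of 14, 3 of 16 and 7 of 28 gated cells, or 0%, 7.14%, 18.8% and 25.0%. Both PM mice were above both vehicle mice (3.57% ± 5.05 against 21.9% ± 4.42, SD, n = 2 mice per group), and the exact permutation test gave p = 0.333, the smallest that 2 against 2 mice allow. Of all cells over the neutrophil limit, 0 of 6612, 1 of 4330, 3 of 8105 and 7 of 5896 were in the gate. For vehicle replicate 1 this allows a share of up to 0.0454% by the 3-count floor and 0.0558% by the Clopper-Pearson limit. For PM replicate 2 the share was 0.119% (95% Clopper-Pearson interval 0.0477 to 0.244, counting error only). The shares of vehicle replicate 2 and PM replicate 1 lay closer, at 0.0231% (0.000585 to 0.129) and 0.0370% (0.00763 to 0.108). The Clopper-Pearson intervals of all mice overlapped, while the 3-count floor of vehicle replicate 1 lay just below the 0.0477% of PM replicate 2. The monocyte-carrying cells numbered 0, 2, 1 and 2. Called doublets, whose number was set from the size of each library, were 7.05%, 6.01%, 10.4% and 7.22% of all kept cells.

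The share of gated cells was compared between treatments as the first question of the design. It was 0.0324% (95% Clopper-Pearson interval 0.00668 to 0.0946), 0.179% (0.0978 to 0.300), 0.120% (0.0683 to 0.194) and 0.302% (0.201 to 0.436) of kept cells in vehicle replicates 1 and 2 and PM replicates 1 and 2. The groups overlapped, with vehicle replicate 2 above PM replicate 1. PM exceeded vehicle in 3 of 4 pairs of mice, by 0.105 percentage points on average (0.106% ± 0.104 against 0.211% ± 0.129, SD, n = 2), which was within the spread between mice (exact permutation test, two-sided p = 0.667). With every cell thinned to 1000 UMIs before gating, the difference was 0.0446 percentage points, again with 3 of 4 pairs higher. For the unmixed cells alone the shares were 0.0324%, 0.128%, 0.0896% and 0.205%. Without vehicle replicate 1 the difference was 0.0319 percentage points, and without PM replicate 2 it was 0.0139. It was larger without vehicle replicate 2 (0.0324% against 0.211%) and without PM replicate 1 (0.106% against 0.302%). These are shares of captured droplets and not frequencies in marrow.

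**Figure D4:**
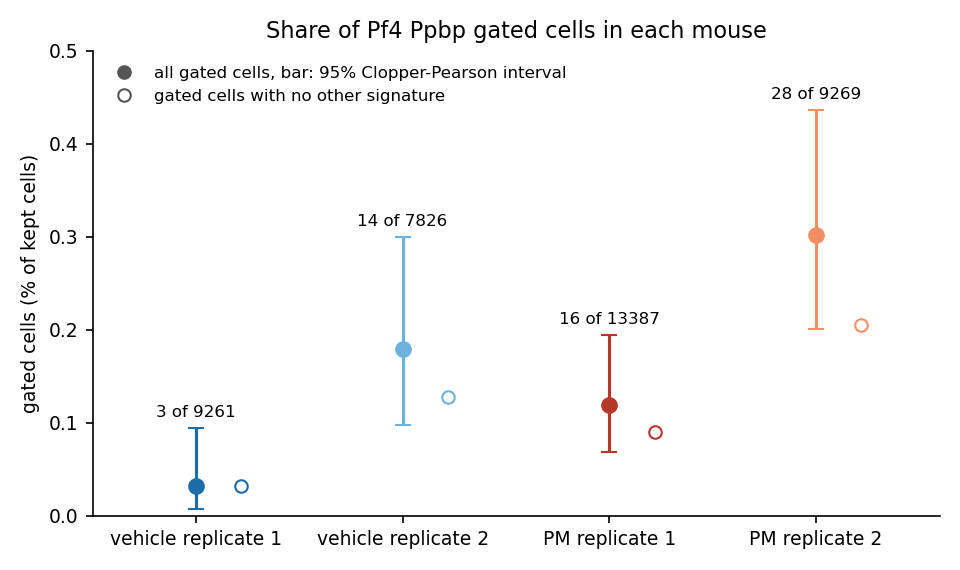
Filled points are the gated cells as a percentage of kept cells in each of the 4 mice, with 95% Clopper-Pearson intervals and the counts above them, and open points are the unmixed gated cells. The shares of the vehicle mice, 0.0324% and 0.179%, span a range that includes the 0.120% of PM replicate 1.

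Depth and the share of UMIs from the platelet lists, most of it from cytoskeletal genes, were compared next. The median depth of gated cells was 1123, 5827.5, 3999.5 and 6969 UMIs by mouse, higher under PM in 3 of 4 pairs (exact permutation p = 0.667, two-sided). Without vehicle replicate 1 the mean difference in all gated cells was negative. In the unmixed cells it was 1123, 8228, 3712 and 5927, higher in 2 of 4 pairs, and the mean difference was 144 UMIs against 2009 in all gated cells. The platelet lists without Pf4 and Ppbp took a median of 102, 88.9, 82.7 and 79.4 per 1000 UMIs. This was lower in both PM mice than in both vehicle mice (95.4 ± 9.12 against 81.1 ± 2.30, SD, n = 2, exact permutation p = 0.333, the smallest possible). In the unmixed cells the values were 102, 162, 109 and 90.4, and the groups overlapped. The median neutrophil-list share was 5.01, 1.62, 4.26 and 2.39 per 1000 UMIs, with no separation of the groups (exact permutation p = 1). Its share of summed UMIs was 4.92, 3.30, 51.0 and 76.5, where the 11 neutrophil-carrying cells enter with all their UMIs.

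Genes were then tested between PM and vehicle on UMIs summed over the gated cells of each mouse, with edgeR's quasi-likelihood test (Benjamini-Hochberg adjusted p under 0.05 and absolute log2 fold change over 0.5). Of 4538 genes tested, 188 (4.14%) were called higher and 13 (0.286%) lower under PM, 4.43% in all, beside 363 and 112 at an unadjusted p under 0.05. DESeq2 called 18 higher and 1 lower. Since vehicle replicate 1 held 3452 UMIs, 1 UMI there equals 290 CPM and the vehicle level of most genes came from vehicle replicate 2. Bulk sums also do not separate a change per cell from a change in the mix of cells summed.

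Genes of the neutrophil and monocyte lists were 22 of the 188 called higher. Of the 20 neutrophil-list genes tested, 18 were called higher and 0 lower, with a median log2 fold change of 4.41 beside 0.10 over all 4538 genes. Of the 18 calls, 0 were kept without PM replicate 1, 3 without PM replicate 2, 5 without vehicle replicate 2 and 18 without vehicle replicate 1. Camp, which encodes the cathelicidin peptide, was at 0, 54.0, 4886 and 6523 CPM in the order above, and Ngp, a granule protein of immature neutrophils, at 290, 45.0, 3486 and 6583 CPM. Both PM mice exceeded both vehicle mice for these genes, with log2 fold changes of 6.91 and 6.59 (adjusted p = 0.00156 and 0.00320). Without the 17 mixed cells these were 1.15 and 1.18 and not called, and 0 of 6 tested neutrophil genes were called (median 1.05), where most of the cells removed had been defined by this list. Both calls were lost when 1 PM mouse was left out, whichever it was, with log2 fold changes of 6.87 to 7.22 for Camp and 5.95 to 6.801 for Ngp. S100a8 had 1448, 1150, 14789 and 23900 CPM. The monocyte genes Ly6c2, Fn1, Ccr2 and Ms4a6c were called higher, 4 of the 5 tested. Of these 4 calls, 1 was kept without PM replicate 1 and 0 without PM replicate 2 or without vehicle replicate 2, and no monocyte gene could be tested without the mixed cells. Of the 188 genes called higher, 184 had a higher CPM in the 17 mixed cells than in the 44 unmixed cells, where 1427 of all 4538 tested genes did. The mixed cells of vehicle mice held only 1750, 4120, 5851 and 6175 of the 218795 UMIs in mixed cells. Most UMIs of mixed cells thus came from PM mice, which favours genes already called higher under PM. The count of 184 therefore cannot show which cells the rises came from.

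Among the 10 largest rises by the naming rule were Plp2, Fcnb, Nhsl2, Asprv1, Clip1, Camp, D1Ertd622e, Ngp and Tiparp. Of these 9 genes, 7 had 0 UMIs in both vehicle mice, so their fold is a lower bound against a floor of 3 UMIs over the vehicle group. Plp2, a membrane proteolipid, had 13 and 41 UMIs in the PM mice and was at least 14.9-fold higher. Fcnb, a ficolin of myeloid cells, with 14 and 37 UMIs, was at least 14.1-fold higher. Fcnb was at 229 CPM in the mixed cells and 1.30 CPM in the unmixed cells. Clip1, a microtubule plus-end protein, was the most even of the 9, at 59.4 and 27.3 CPM.

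Platelet genes were called lower in 5 cases. Thbs1, encoding the alpha-granule protein thrombospondin-1, stood at 0, 990, 152 and 100 CPM, and its 0 in vehicle replicate 1 rests on 3452 UMIs in all. F5, coagulation factor V, was at 290, 513, 141 and 48.7 CPM (log2 fold change -2.26), lower in both PM mice than in both vehicle mice. Cald1 was at 869, 463, 57.5 and 68.8 CPM (-2.74). Tbxa2r, the thromboxane receptor, was at 290, 112, 36.6 and 22.9 CPM (-1.95). Gp9 was at 0, 524, 136 and 80.2 CPM, with 140 of the 233 UMIs of vehicle replicate 2 in the deepest cell. Without that cell its log2 fold change was -2.14 and still called, against -2.004 with it. Thbs1, F5 and Cald1 kept their call without that cell, and Tbxa2r lost it at -1.21. The Gp9 call was lost with RLE size factors, with a stricter gate, and with limits of 500 genes and 10% mitochondrial UMIs. Tbxa2r also lost its call with the stricter gate. Without a filter on low counts Thbs1, F5, Gp9 and Tbxa2r lost their call and Cald1 kept it. DESeq2 called 0 of the 5 genes lower. The groups overlapped for Thbs1 and Gp9 and did not for the other 3. With 1 mouse left out the log2 fold change of F5 ran from -2.84 to -0.12 (-0.12 without vehicle replicate 2). It ran from -2.87 to -2.16 for Cald1 and from -2.29 to -1.53 for Tbxa2r. For Thbs1 it ran from -3.02 to 7.51 and for Gp9 from -2.33 to 7.28, positive only without vehicle replicate 2. In that setting the vehicle group was vehicle replicate 1 alone, and the median log2 fold change over all tested genes was 6.38. The values without vehicle replicate 2, the -0.12 of F5 included, are to be read beside that median. All 5 calls were lost without vehicle replicate 2, and when 1 PM mouse was left out, whichever it was.

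Summaries of the platelet lists leave out Pf4 and Ppbp, which set the gate. Of 23 granule genes tested, 2 were called lower and 0 higher (median log2 fold change -0.56), where 0.286% of all tested genes were called lower. The counts were 1 lower of 24 receptors (-0.92), 1 lower of 37 signalling genes (-0.49) and 1 lower of 28 cytoskeletal genes (-0.22), with 0 higher in each. Itga2b (-0.06) and Itgb3 (-0.04) had values near 0, and Rab27b was at 0.11. Without the 17 mixed cells, 0 genes of these 4 lists were called in either direction and their medians lay between -0.71 and -0.26. The 5 genes that lost their call there had log2 fold changes of -2.79 (Cald1), -2.40 (F5), -2.24 (Thbs1), -1.57 (Gp9) and -1.52 (Tbxa2r). Without the deepest cell, 5 of 20 receptors (-1.17) and 3 of 21 granule genes were called lower. So were 1 of 34 signalling genes and 2 of 27 cytoskeletal genes, beside 29 of all 3198 genes tested in that setting.

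The lineage transcription factors had 1 of 19 tested genes called higher, near the 4.14% of all tested genes. It was Gata2 (0, 27.0, 67.9 and 243 CPM). Without the 17 mixed cells its log2 fold change was 3.27 and not called, against 2.64 with them. Gata2 is also a basophil gene, as is Hdc, which encodes histidine decarboxylase and was called too. In PM replicate 2 the basophil gene Prss34 had 504 UMIs in 3 gated cells and the basophil and mast cell list took 2.50 per 1000 UMIs, against at most 0.157 in the other 3 mice. The part of these cells in the Gata2 value was not tested. Gata1 (-0.55), Gfi1b (-0.43) and Nfe2 (0.50) were not called.

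**Figure D5:**
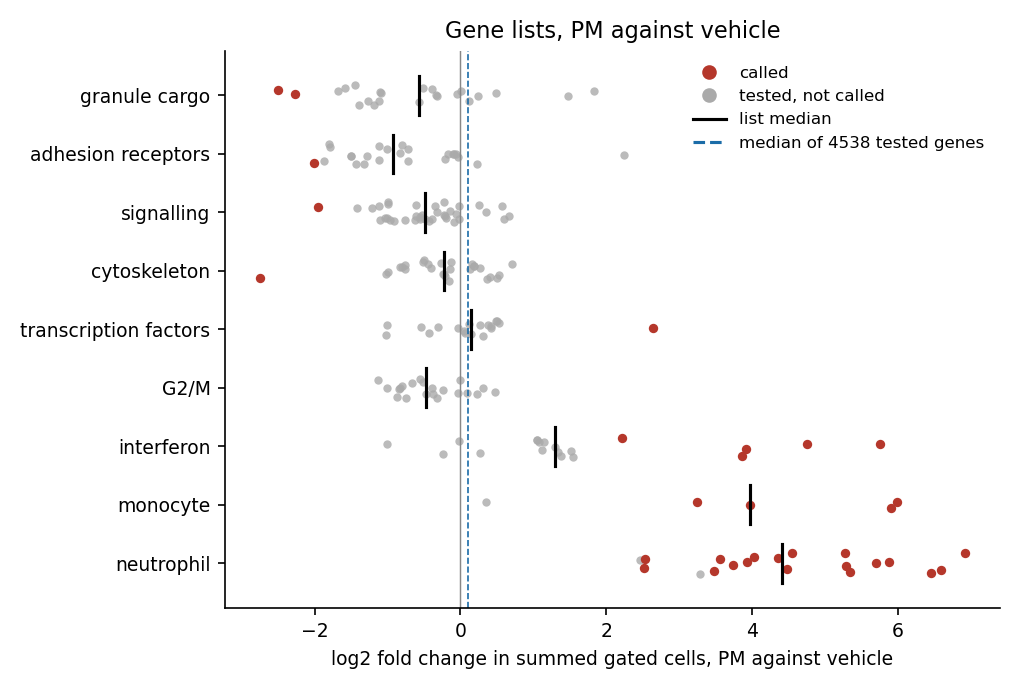
Each point is a tested gene of a list, at its log2 fold change between PM and vehicle in summed gated cells, red where called. Bars mark list medians, from -0.92 for adhesion receptors to 4.41 for the neutrophil list, and the dashed line marks the median of all 4538 genes, 0.10.

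The other falls by the naming rule were Hbb-bs, Tubb2a, Dapk1 and Hist1h3c. Without the deepest cell Hist1h3c had a log2 fold change of -0.77 and was not called, against -1.86 with it. Hbb-bs, Tubb2a and Dapk1 kept their call there. Hbb-bs, a beta-globin gene, was at 290, 765, 31.4 and 14.3 CPM, and vehicle replicate 2 held the 1 erythroid-carrying cell. Interferon-stimulated genes had 5 of 19 tested called higher (4.14% over all genes), Ifi27l2a, Slfn1, Slfn4, Oasl2 and Cmpk2, and the groups overlapped for Oasl2 and Cmpk2. Ifi27l2a was at 0, 2.25, 246 and 57.3 CPM, and Slfn4 at 0, 6.75, 94.1 and 106 CPM. These calls depended on which mouse was left out. Without vehicle replicate 2 the log2 fold change was -1.14 for Oasl2 and -0.37 for Cmpk2. It was 7.72 for Ifi27l2a, 6.72 for Slfn1 and 7.22 for Slfn4, beside a median of 6.38 over all genes. Without the mixed cells these 5 genes could not be tested, and 0 of the 9 interferon genes that could be were called. No G2/M gene was called (0 of 21, median -0.48, which was 0.04 without the deepest cell). Of the HDAC genes, Hdac1, Hdac2 and Hdac3 had log2 fold changes of -0.01, 0.66 and 0.95 and were not called, and Hdac6, Hdac8 and Hdac10 had too few UMIs to be tested. No gene was called among the 2 progenitor, 1 T and NK cell, 1 plasma cell, 4 dendritic cell, 8 histone and CDK inhibitor and 10 apoptosis genes tested, and the macrophage, B cell and stromal lists had 0 genes tested.

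With the 17 mixed cells left out, 4 of 3131 genes were called by the same test, beside 75 higher and 56 lower at an unadjusted p under 0.05. The 2 unmixed cells that were called doublets stayed in, both of vehicle replicate 2, with 277644 and 74600 UMIs. Vehicle replicate 1 held 3452 UMIs, so the vehicle side of this test rested mostly on those 2 cells. Apoe, a lipid carrier, was higher under PM (0, 4.69, 113 and 194 CPM), as were Clip1 (0, 0, 60.1 and 63.0 CPM) and Igfbp4, an insulin-like growth factor binding protein (0, 11.7, 67.6 and 131 CPM). The histone gene Hist1h2ae was lower, at 0, 506, 15.02 and 67.8 CPM, and its groups overlapped. Clip1 had been named by the rule, and Apoe, Igfbp4 and Hist1h2ae are named here because of their values. Of the 188 rises, 21 were tested in the unmixed cells and 3 were called, and of the 13 falls, 11 were tested and 1 was called.

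Whether PM changed these cells differently from the rest of the marrow was tested as an interaction on gated and other cells of each mouse. Of 14346 genes, 127 (0.885%) were called, 80 (0.558%) more positive and 47 (0.328%) more negative in gated cells. Of the platelet lists, the granule gene Thbs1, the receptors Gp9, Gp1bb, Cd226, Esam and F11r, the signalling genes Tbxa2r, Lat and P2rx1 and the cytoskeletal genes Cald1 and Myl9 were among the 47, with F5. The lineage factor gene Gata2 was among the 80, with a log2 difference of 2.16. Whether the lists held more of these calls than other genes was not tested. Myl9, a myosin light chain, was at 0, 207, 94.1 and 88.8 CPM in gated cells and 0.140, 0.233, 0.792 and 1.19 CPM in other cells. Camp was at 13391, 13824, 14144 and 13152 CPM in other cells, where its level in gated cells ran from 0 to 6523 CPM. Without vehicle replicate 1 the count was 460 genes and without PM replicate 2 it was 5.

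These counts depended on single mice and on which cells entered. Without the called doublets 16 genes were called higher and 40 lower, without the deepest cell 43 and 29, and without vehicle replicate 2 there were 19 and 0.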

How the data were processed

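Bone marrow cells of 4 mice, 2 vehicle and 2 PM, were profiled with 1 droplet 3' library per mouse. The deposited matrices hold raw UMI counts of 32285 genes, which the authors made with Cell Ranger 6.0.1 per the file headers. The study's methods name GRCm38 and the labels list GRCm39, and coordinates given here are of GRCm38. Vehicle is the group that the sample labels call con.

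Barcodes under 300 genes, or with mitochondrial genes above 20% of UMIs, were dropped, and cells with at least 3 Pf4 and 2 Ppbp UMIs formed the gate. The members and gene lists were chosen with earlier results of these data known. The limits for mixed cells (over 100 per 1000 UMIs of the neutrophil or erythroid list, or over 4 of the monocyte list) were set after seeing the values. Scrublet's automatic threshold marked 4 and 7 cells in 2 libraries, so the highest scores were called at 0.8% per 1000 barcodes in each library. Called doublets were kept. Clusters used scanpy 1.11.5 (10 components, resolution 1).

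UMIs were summed per mouse and tested with edgeR 4.0.16 in R 4.3.3 (TMM, filterByExpr, robust quasi-likelihood), with Benjamini-Hochberg adjustment over all tested genes, and with DESeq2 1.42.0 as an alternative. The interaction had the mouse as a block. Single values had exact two-sided permutation tests, where 2 against 2 mice cannot give less than 0.333. Intervals and floors (3 counts) cover counting error only. Between PM and vehicle the text names up to 10 rises and 10 falls that had a mean of at least 20 CPM and 1 direction in 4 of 4 pairs (immunoglobulin, T cell receptor and mitochondrial genes left out), the HDAC targets of PM, and any gene of the lists. Results of a few genes are not reported here. The test was checked on simulated data, where it missed all of the smaller changes and most of the large ones and found nearly all only of the largest tried, so a gene that was not called is not shown to be unchanged.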

Additional observations from a re-analysis of the deposited data

Results flagged for a closer look

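For 127 genes the effect of PM differed between gated cells and all other cells of the same mice by the edgeR interaction test, at a Benjamini-Hochberg adjusted p under 0.05. Among the genes named in the text by the rule, the adjusted p of this difference was 0.000123 for Cald1, 0.00101 for Tbxa2r, 0.0116 for F5 and 0.0261 for Tubb2a, all more negative in gated cells. It was 0.00101 for Tiparp, 0.00129 for Fcnb, 0.00189 for Plp2, 0.00218 for Clip1, 0.00322 for Nhsl2, 0.0183 for D1Ertd622e, 0.0322 for Camp and 0.0384 for Ngp, all more positive in gated cells. The part of the mixed cells in these differences was not tested.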

How the results depend on the processing

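The 201 genes called between PM and vehicle became 19 with DESeq2, 312 without a filter on low counts, 56 without called doublets, 72 without the deepest cell, 4 without mixed cells and 12 after thinning cells to 1000 UMIs, when 236 genes could be tested. Leaving out 1 mouse gave 19 (without vehicle replicate 2) to 396 (without vehicle replicate 1) genes. A replicate block gave 65 genes, all higher, so that all 13 falls lost their call; the replicate numbers only name samples, and deviations of same-numbered mice had a correlation of -0.037. The 127 genes of the interaction became 219 with RLE size factors, 66 without a filter and 260 with no replicate block, and 5 (without PM replicate 2) to 460 (without vehicle replicate 1) with 1 mouse left out. Deepest-cell, mixed-cell and thinning settings were added after seeing the data. The difference in median depth was -343.25 to 4361.25 UMIs with 1 mouse left out, negative without vehicle replicate 1. The difference in the median neutrophil-list share, 0.00955 per 1000 UMIs, was 1.17 with a looser gate, -0.303 with a stricter gate, -0.516 without called doublets, -0.870 without mixed cells and -1.68 to 1.70 with 1 mouse left out. Without vehicle replicate 2 the median log2 fold change of all genes was 6.38, and with 1 mouse left out the log2 fold change was -0.37 to 2.40 for Cmpk2, -1.14 to 6.85 for Oasl2, -2.33 to 7.28 for Gp9, -2.51 to 7.003 for Hist1h2ae and -3.02 to 7.51 for Thbs1. Of the 48 genes followed across settings (named by the rule, called list genes, or called without mixed cells), no other changed direction where it was tested, and genes that were not called were not followed; apart from settings that left out a mouse, 267 values kept their call and 135 lost it. The causes were not tested. The 3452 UMIs of vehicle replicate 1 limit every comparison.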

Other observations

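Basophil and mast cell transcripts stood out in PM replicate 2. Prss34, a basophil protease gene, had 506 UMIs in all gated cells, and 504 of them lay in 3 cells of that mouse. In the interaction test 7 of 8 basophil and mast cell genes were called more positive in gated cells (0.558% over all genes), Mcpt8, Prss34, Ms4a2, Fcer1a, Gata2, Hdc and Cd200r3. Of these, Ms4a2, Fcer1a and Cd200r3 had 0 UMIs in PM replicate 1 and Mcpt8 and Prss34 had 2 and 1, and without PM replicate 2 only 1 gene of all tested was called more positive. The list's share of summed UMIs was 0, 0.0315, 0.157 and 2.50 per 1000 in vehicle replicates 1 and 2 and PM replicates 1 and 2.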
